A study of Mus musculus with 12 samples.

Results

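The transcripts described here are those encoded by the mitochondrial genome itself. They were chosen as every row of the deposited gene table whose symbol begins with mt-, and 37 of 55487 rows met that rule: 13 messenger RNAs, 2 ribosomal RNAs and 22 transfer RNAs. The table comes from bulk RNA sequencing of whole kidneys from male mice with X-linked Alport syndrome (Col4a5, the gene of a collagen IV chain of the glomerular basement membrane) on the B6 background at 30 weeks of age. Of the 12 libraries, 6 were from mice on a control diet and 6 from mice on a diet with fisetin, a plant flavonol, at 500 ppm. Each of 2 labelled batches held 3 libraries of each diet. All mice carried the disease model, no healthy kidney is among the samples analysed here, and the genotype field reads HET although the series describes males. RNA with an integrity number above 8 went into KAPA mRNA HyperPrep libraries, a kit that selects polyadenylated RNA. Libraries are called control 1 to 6 and fisetin 1 to 6, with numbers 1 to 3 in batch 1 and 4 to 6 in batch 2. Nothing in the labels ties each of them to its own animal, so p-values measure only the spread between these libraries, which may be partly technical. Library totals lay between 16310214 and 24451821 counts.

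Mitochondrial DNA is a small circle that most cells hold in many copies. Its messenger RNAs encode core subunits of respiratory complexes I, III and IV and of ATP synthase, whose other subunits come from nuclear genes. The polymerase POLRMT, with TFAM, copies both strands into long precursors, from which the transfer RNAs are cut out so that the messenger and ribosomal RNAs between them are released. The kidney's proximal tubule is among the tissues richest in mitochondria. Fragments of mitochondrial DNA also lie in the nuclear genome, and a read from such a shared stretch can be placed in either genome.

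All 13 messenger RNAs and both ribosomal RNAs were counted in all 12 libraries and passed the filter on low counts. The 22 transfer RNA rows, whose genes span 59 to 75 bases, held 0 counts in every library. With totals of this size, a count of 0 allows up to 3 counts, or between 0.123 and 0.184 CPM (counts scaled to a common library total) depending on the library, counting error only. No single transfer RNA is therefore described further. In GRCm38 the ribosomal RNA genes lie at chrM:70-1024 (mt-Rnr1) and chrM:1094-2675 (mt-Rnr2). The messenger RNA genes, which have no introns, follow from mt-Nd1 at chrM:2751-3707 through mt-Co1 at chrM:5328-6872, mt-Co2 at chrM:7013-7696, mt-Atp8 at chrM:7766-7969, mt-Atp6 at chrM:7927-8607 and mt-Co3 at chrM:8607-9390 to mt-Cytb at chrM:14145-15288. Their annotated lengths run from 204 bases (mt-Atp8) to 1824 (mt-Nd5), and transfer RNA genes lie between most of them. The mitochondrial genome lists 28 of the 37 genes on the plus strand and 9 on the minus strand, and mt-Nd6 is the 1 messenger RNA on the minus strand. Whether reads were counted by strand is not given in the sources used here, so reads from the 2 strands of a shared stretch may not be told apart.

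Counts of several messenger RNAs were divided with a nuclear copy. A stretch of chromosome 1, chr1:24611535-24616197 in GRCm38, minus strand, holds 7 adjacent annotated pseudogenes that match mitochondrial genes, all of them in this table. By alignment of GENCODE transcripts, Gm28661 matched the first 681 bases of mt-Co2 (cytochrome c oxidase subunit 2) at 100% identity, Gm10925 the first 678 bases of mt-Atp6 (ATP synthase membrane subunit a) at 100%, and Gm28437 the first 783 bases of mt-Co3 (cytochrome c oxidase subunit 3) at 100%. Gm28438 differed from mt-Nd3 (complex I subunit) at 1 of 345 bases, T3C. Gm29216 differed from the end of mt-Co1 (the catalytic subunit of cytochrome c oxidase) at 1 of 483 bases, A1066T. Positions are counted from 1 at the first base of the mitochondrial gene, and the mitochondrial base stands first. The other pseudogenes, Gm28439 (the first 876 bases of mt-Nd4, 100%) and Gm10222 (294 bases of mt-Nd4l, 100%), held 0 counts in all 12 libraries. Less similar copies on chromosomes 2 and 13, at 95.18% to 97.6% identity, held at most 2.01 counts in any library.

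The stretches around the 2 differing bases are shown because they are the only places inside the aligned parts where those copies can be distinguished from the mitochondrial gene. Capitals mark the differing base, and each sequence is read 5′ to 3′ along its gene from GENCODE transcripts on GRCm38. The mt-Nd3 stretch lies at chrM:9459-9501 and that of Gm28438 at chr1:24613077-24613119 on the minus strand. The mt-Co1 stretch lies at chrM:6390-6433 and that of Gm29216 at chr1:24616145-24616188 on the minus strand.
mt-Nd3 around T3C: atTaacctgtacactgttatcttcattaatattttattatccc
Gm28438 around T3C: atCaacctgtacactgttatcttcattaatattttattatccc
mt-Co1 around A1066T: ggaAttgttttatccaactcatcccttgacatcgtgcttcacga
Gm29216 around A1066T: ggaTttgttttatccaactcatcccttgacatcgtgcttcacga
The first 120 bases of mt-Co3, chrM:8607-8726, are shown as an example of a stretch that is the same letter for letter in its copy Gm28437, with the start codon in capitals.
mt-Co3 and Gm28437, first bases: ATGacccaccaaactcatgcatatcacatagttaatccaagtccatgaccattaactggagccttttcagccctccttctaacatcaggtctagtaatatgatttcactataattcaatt

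For mt-Co3, most of the counts of the pair stood on the nuclear row. The mitochondrial row held 1.87% (control 1) to 7.45% (fisetin 4) of the counts of gene plus copy, with a median of 4.09%. For mt-Co2 the range was 6.51% (fisetin 4) to 16.1% (control 1) with a median of 10.01%, and for mt-Atp6 it was 22.9% (control 3) to 37.4% (control 6) with a median of 28.6%. mt-Co1, whose copy covers only its end, kept 98.7% to 99.7%.

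The division was widest for mt-Nd3. The mitochondrial row held 17.2%, 99.6%, 20.4%, 42.4%, 34.6% and 73.9% of the pair in control 1 to 6, and 26.7%, 20.6%, 28.7%, 81.4%, 83.1% and 27.1% in fisetin 1 to 6. Low and high values occurred in both diets. Gm28438 went from 29.88 counts in control 2 to 11118 in the library where it was highest. The coefficient of variation of mt-Nd3 over the 12 kidneys, on CPM scaled by the trimmed mean of M-values (TMM), was 52.2% for the mitochondrial row alone and 27.2% after the copy's counts were added. It went from 44.8% to 18.8% for mt-Co3, from 23.7% to 17.6% for mt-Co2, from 21.4% to 19.7% for mt-Atp6 and from 17.3% to 16.8% for mt-Co1. Values are therefore given below as deposited and with the counts of the 7 copies added to their genes. The second form was chosen after the counts were seen, and it would also include any true transcript of the nuclear stretch.

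**Figure D1:**
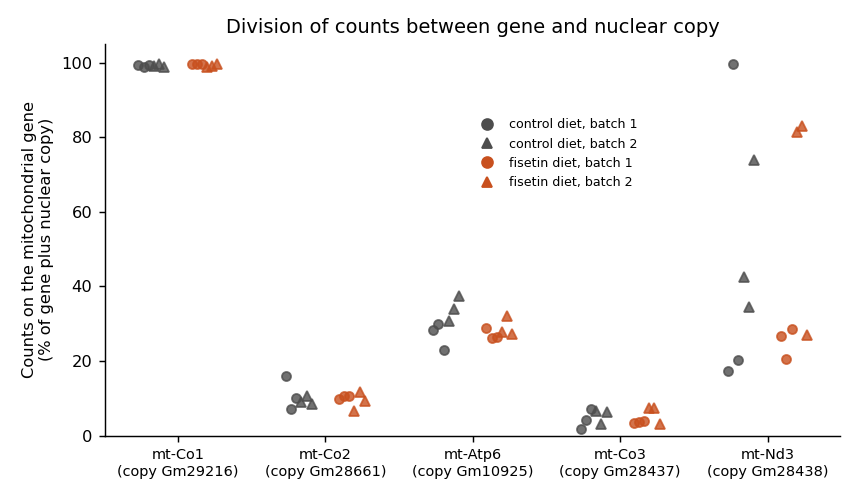
Counts on the mitochondrial gene as a percentage of the counts of gene plus nuclear copy, 1 point per kidney, for 5 gene and copy pairs, coloured by diet and shaped by batch. mt-Co1 stays at 98.7% or more in all kidneys, mt-Co3 at 7.45% or less, and mt-Nd3 runs from 17.2% to 99.6% with both diets spread over that range.

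The share of mitochondrial messenger RNA differed between diets by less than between kidneys of 1 diet. The share of all counts in the 13 messenger RNAs was 2.80%, 3.25%, 3.98%, 3.85%, 3.16% and 3.53% in control 1 to 6, and 3.22%, 3.16%, 3.59%, 3.11%, 2.67% and 4.32% in fisetin 1 to 6. Fisetin 5 was the lowest and fisetin 6 the highest of all 12 kidneys, and the diets overlapped. The means were 3.43% ± 0.445 with the control diet and 3.35% ± 0.559 with fisetin (SD, n = 6 each), a difference of -0.0830 percentage points that is smaller than either SD. It was -0.0200 in batch 1 and -0.146 in batch 2. Its sign rested on single libraries: it was -0.277 without fisetin 6 and -0.209 without control 1, but 0.0521 without fisetin 5, 0.0277 without control 3 and 0.0005 without control 4. A sum over the members was given no test. Summed proximal tubule markers ran from 8463 CPM in fisetin 5 to 26040 CPM in control 4, with 23850 CPM in fisetin 6, and their part in the shares was not tested.

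With the nuclear copies added, the messenger RNA share was 4.48% ± 0.595 against 4.40% ± 0.764, and the copies alone held 1.06% ± 0.153 against 1.05% ± 0.206 (SD, n = 6 each, control first). The 2 ribosomal RNAs, mt-Rnr1 and mt-Rnr2, the RNAs of the small and large mitochondrial ribosomal subunits, held 0.000381% ± 0.000351 and 0.000453% ± 0.000572. On the deposited TPM values, which are scaled to transcript length and sum to the same total in each library, the messenger RNA share was 3.33% ± 0.796 and 3.30% ± 0.334. Its lowest value, 1.80%, was in control 1, where the 7SL RNA rows Rn7s1 and Rn7s2 together held 53.1% of all TPM, against 40.3% to 49.2% in the other kidneys. In whole-kidney RNA, fewer cells rich in mitochondria and less mitochondrial RNA per cell cannot be told apart.

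**Figure D2:**
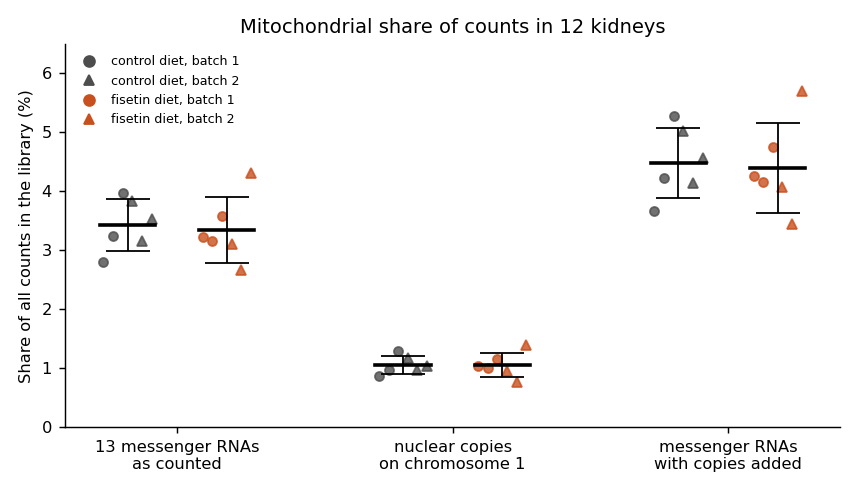
Share of all counts in each library, in percent, held by the 13 messenger RNAs as counted, by the nuclear copies on chromosome 1, and by both together; points are kidneys and bars are mean ± SD of 6. The diets overlap in all 3 sets, with fisetin 5 lowest and fisetin 6 highest in each.

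The messenger RNA genes differed in counts per kilobase far more than any of them differed between kidneys. Per length, as CPM per kilobase of annotated transcript with copies added, mt-Co1 led with 12100 ± 1596 (SD, n = 12). It was followed by mt-Co3 (6482 ± 1006), mt-Co2 (4909 ± 693), mt-Atp6 (4731 ± 771.5) and mt-Cytb, the cytochrome b of complex III (3325 ± 514). The 3 cytochrome c oxidase subunits therefore held the 3 highest levels. Among the complex I subunits the levels per kilobase were 2652 ± 404 for mt-Nd1, 1919 ± 385 for mt-Nd4, 1627 ± 254 for mt-Nd5, 1372 ± 329 for mt-Nd3, 1314 ± 254 for mt-Nd2 and 683 ± 153 for mt-Nd4l. mt-Atp8, the small ATP synthase subunit, stood at 175 ± 39.6, and mt-Nd6, the complex I subunit on the minus strand, was lowest of the messenger RNAs at 43.3 ± 5.76. The part of the selection of polyadenylated RNA in the value of mt-Nd6 was not tested. mt-Atp8 and mt-Nd4l are the shortest of these genes, at 204 and 297 bases. They share a messenger RNA with mt-Atp6 and mt-Nd4, respectively. Their values per annotated length therefore cannot be read as separate RNA levels, and the part of gene length was not tested.

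Most steps of this order held in each kidney. The ratio of mt-Co1 to mt-Co3 was 1.87 ± 0.0875 and that of mt-Nd4l to mt-Atp8 was 3.995 ± 0.873, in this order in 12 of 12 kidneys. The neighbours mt-Co2 and mt-Atp6 (ratio 1.04 ± 0.0333, 11 of 12), mt-Nd5 and mt-Nd3 (1.21 ± 0.101, 11 of 12) and mt-Nd3 and mt-Nd2 (1.04 ± 0.0631, 10 of 12) changed places in some kidneys. As deposited, without the copies, mt-Co3 stood at 316 ± 136, mt-Co2 at 488 ± 110, mt-Atp6 at 1379 ± 242 and mt-Nd3 at 591 ± 305, so the order of these 4 genes rests on where shared reads were placed. The ribosomal RNAs were at 0.853 ± 0.726 (mt-Rnr1) and 2.12 ± 2.47 (mt-Rnr2) CPM per kilobase. Their raw counts ran from 2 (control 2) to 51 (control 4) for mt-Rnr1 and from 5 (fisetin 5) to 236 (fisetin 1) for mt-Rnr2. Ribosomal RNA is normally the most abundant RNA of the mitochondrion, and after selection of polyadenylated RNA these 2 rows cannot be read as its level in the tissue.

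The deposited FPKM (fragments scaled to transcript length and library total) and TPM columns rank the short genes differently. The length at which a count, its library total and its FPKM agree was 653.5 bases for mt-Nd1, annotated at 957, and 1241.5 for mt-Co1, annotated at 1545. For mt-Atp8, annotated at 204 bases, it was 4.1 bases, for mt-Nd4l (297) 37.2 and for mt-Nd3 (348) 69.7, medians over the 12 libraries. mt-Atp8 accordingly made up 17.2% of the summed mitochondrial messenger TPM but 0.105% of the same genes' counts, and mt-Nd4l 10.7% against 0.594%. TPM and FPKM are used below only for shares within the pool and in alternative fits.

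**Figure D3:**
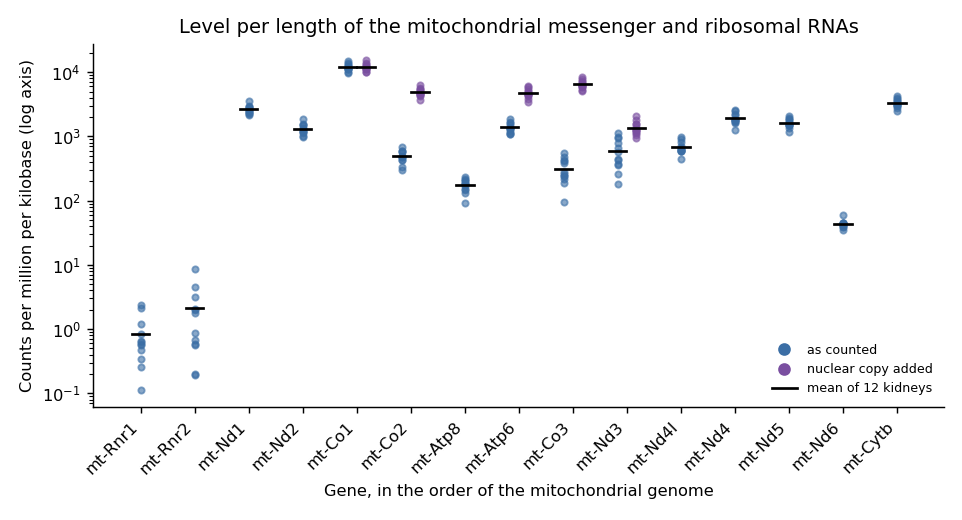
CPM per kilobase, on a log axis, for the 2 ribosomal and 13 messenger RNAs in the order of the mitochondrial genome; each point is 1 of 12 kidneys and bars are means. For the 5 genes with a counted nuclear copy the level is shown as counted and with the copy added, and mt-Co3 moves from 316 to 6482.

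None of the 15 tested transcripts passed for diet. In edgeR's quasi-likelihood test with batch as a term and Benjamini-Hochberg adjustment over 17890 genes, 0 of 15 had an adjusted p under 0.05, and 0% of all genes did. At an unadjusted p under 0.05 the counts were 0 of 15 and 14.6% of all genes. DESeq2 called 0 of the 15 against 0.928% of all genes, with 0 of 15 and 15.8% at an unadjusted p under 0.05. In limma-voom with sample quality weights, whose calls over all genes were more numerous, 0 of the 15 passed against 13.4% of all genes, with 2 of 15 and 34.5% at an unadjusted p under 0.05. Fold changes (log2, fisetin over control) were negative for 12 of 15, with a median of -0.09 against 0.00 over all genes tested. With copies added they were negative for 11 of 15 with a median of -0.07, and 0 of 15 had an unadjusted p under 0.05 against 14.7% of all genes. Without fisetin 6 all 15 were negative, the median was -0.20 and 3 of 15 (mt-Atp6, mt-Nd6 and mt-Nd4l) had an unadjusted p under 0.05 against 25.7% of all genes; 0 of 15 passed adjustment against 0.388%. Without fisetin 5 and with copies added, 10 of 15 were positive.

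The complex I subunits lay on both sides of 0. In the TMM-scaled CPM of mt-Nd1, the lowest, median and highest values were 2111, 2427 and 2946 with the control diet and 1938, 2444 and 3667 with fisetin. The fisetin kidneys thus held both the lowest and the highest value, and the log2 fold change was 0.05 ± 0.15 (SE). For mt-Nd4 the values were 2193, 2552 and 3537 against 1633, 2383 and 3845, a change of -0.09 ± 0.19. For mt-Nd5, the largest subunit gene, they were 2406, 3012 and 3657 against 2031, 2734 and 4002, a change of -0.07 ± 0.16. Again the fisetin range enclosed the control range. mt-Nd2 (0.02 ± 0.18), mt-Nd4l (-0.14 ± 0.20) and mt-Nd6 (-0.05 ± 0.13) differed by less than their standard errors. mt-Nd3 was at -0.28 ± 0.41 as deposited and at 0.03 ± 0.21 with its copy. With the copy it ran from 359 to 637 CPM in control and from 311 to 780 in fisetin kidneys.

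In complex III, mt-Cytb had a lowest, median and highest value of 3126, 4012 and 4737 CPM with the control diet and of 2665, 3356 and 5154 with fisetin. The change was -0.12 ± 0.16 (log2), with 2 of 6 fisetin kidneys above the control mean. In complex IV, mt-Co1 had values of 15100, 19300 and 22250 against 14350, 16810 and 25020, a change of -0.07 ± 0.16. With copies added, mt-Co2 was at -0.07 ± 0.15 and mt-Co3 at -0.01 ± 0.16, whereas as deposited they were at -0.11 ± 0.19 and -0.21 ± 0.37. mt-Co3 with its copy ran from 3970 to 6229 in control and from 3855 to 7030 in fisetin kidneys.

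Among the ATP synthase subunits, mt-Atp6 had the smallest p of the 15 as deposited, though not with copies added, where mt-Cytb had it. As deposited its lowest, median and highest values were 731.8, 973.7 and 1316 CPM with the control diet and 709, 829 and 1193 with fisetin, so the ranges overlapped, and 1 of 6 fisetin kidneys was above the control mean. The change was -0.21 ± 0.14 (unadjusted p = 0.152, adjusted p = 0.450, edgeR). Over 39 alternatives its adjusted p ran from 0.0542, in limma-voom with quality weights, to 0.981. With its copy the change was -0.11 ± 0.16. mt-Atp8 was at -0.08 ± 0.22, with control 1 lowest at 18.2 CPM and fisetin 6 highest at 50.1.

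The intervals show what sizes of change these 12 libraries leave room for. With copies added, the 95% interval of the fold between diets was 0.749 to 1.202 for mt-Co1, 0.778 to 1.26 for mt-Co3, 0.724 to 1.17 for mt-Cytb, 0.825 to 1.299 for mt-Nd1 and 0.799 to 1.17 for mt-Nd6. The ribosomal RNAs allowed much more, 0.300 to 2.17 for mt-Rnr1 and 0.251 to 4.52 for mt-Rnr2.

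**Figure D4:**
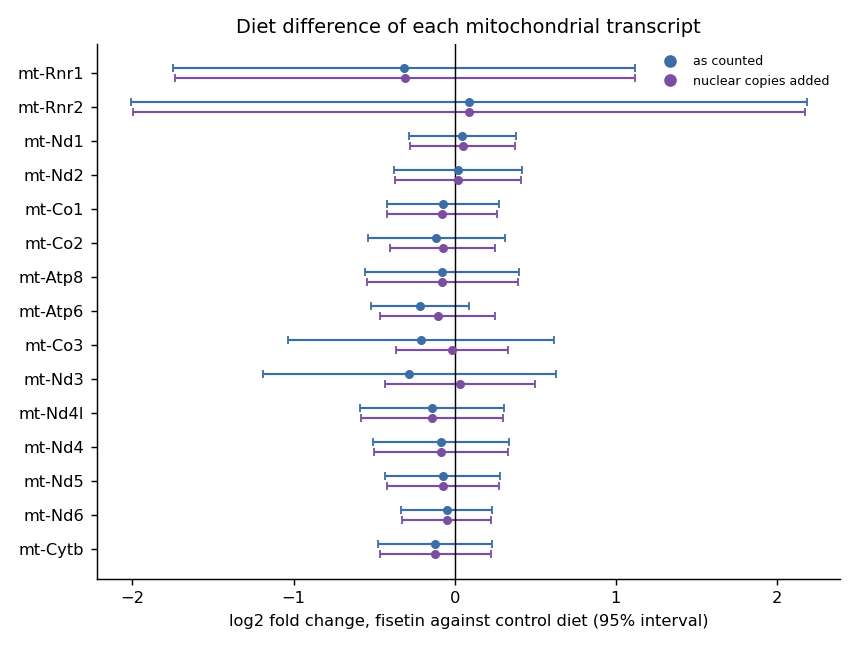
log2 fold change of fisetin over control diet with its 95% interval for the 15 tested transcripts, as counted and with nuclear copies added. All intervals cross 0; those of mt-Co3 and mt-Nd3 narrow when the copies are added, and those of the ribosomal RNAs are widest.

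Within the pool of mitochondrial messenger RNA, the shares of the 4 scarcest genes had the highest coefficients of variation across kidneys. With copies added, mt-Co1 made up 42.2% ± 1.07 of the pool's counts over the 12 kidneys (SD), mt-Co3 11.4% ± 0.348, mt-Cytb 8.56% ± 0.259 and mt-Nd1 5.72% ± 0.296. The coefficient of variation of the share was 2.55% for mt-Co1 and 5.17% for mt-Nd1, but 8.47% for mt-Nd6, 8.49% for mt-Nd4l, 9.74% for mt-Nd3 and 14.8% for mt-Atp8. These shares do not depend on how much of the library is mitochondrial. They sum to 100%, so a higher share of 1 gene goes with lower shares of others. They were given no test.

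In counts with copies added, mt-Nd1 was the gene whose share of the pool stood farthest apart by diet relative to its spread. It was 5.85%, 5.26%, 5.44%, 5.50%, 5.50% and 5.46% in control 1 to 6, and 6.30%, 5.84%, 5.84%, 5.71%, 5.94% and 6.004% in fisetin 1 to 6. All 6 fisetin kidneys were above the control mean, and control 1 alone among controls lay inside the fisetin range. The means were 5.50% ± 0.193 and 5.94% ± 0.204, a difference of 0.435 percentage points, larger than either SD, and 0.473 and 0.397 in batches 1 and 2. As deposited, without copies, the means were 7.20% ± 0.273 and 7.80% ± 0.299. In TPM they were 7.43% ± 0.616 and 7.92% ± 0.410, a difference of 0.494 percentage points that is smaller than the control SD. mt-Co3 with its copy had 11.2% ± 0.341 against 11.6% ± 0.214, with all 6 fisetin kidneys above the control mean and differences of 0.657 and 0.174 in the batches. As deposited, 2 of 6 were. mt-Cytb had 8.73% ± 0.158 against 8.38% ± 0.218 and mt-Atp6 with its copy 7.35% ± 0.144 against 7.13% ± 0.213, with 0 of 6 fisetin kidneys above the control mean for each. These 4 genes were singled out after their values were seen.

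**Figure D5:**
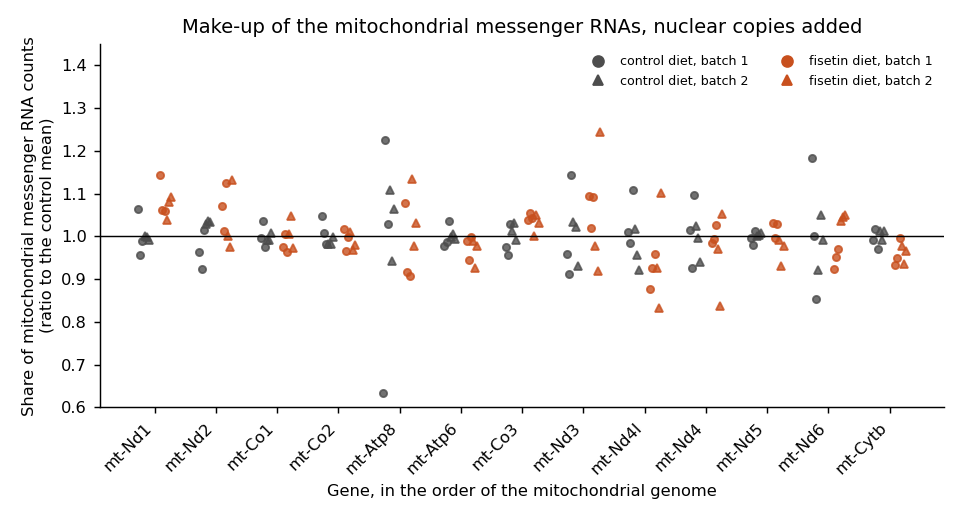
Share of each gene in the counts of the 13 mitochondrial messenger RNAs with nuclear copies added, divided by the mean of the 6 control kidneys, 1 point per kidney. Fisetin kidneys lie above 1 for mt-Nd1 and mt-Co3 and below 1 for mt-Atp6 and mt-Cytb; control 1 is far below the rest for mt-Atp8.

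No mitochondrial transcript passed for batch, or for a diet effect that differs between batches. For batch 2 against batch 1, 0 of 15 passed in edgeR's quasi-likelihood test and 0 had an unadjusted p under 0.05, against 0% and 3.38% of all genes, and the median log2 fold change was 0.09. For the diet by batch term 0 of 15 passed at either threshold, against 0% and 2.10% of all genes. The ribosomal RNAs had the largest diet by batch values, -2.26 ± 1.19 for mt-Rnr1 (unadjusted p = 0.0841) and -2.71 ± 1.67 for mt-Rnr2 (unadjusted p = 0.135), both with an adjusted p of 1.00 in edgeR. With 1 library left out they moved widely: the pair lay at -1.34 and -1.22 without fisetin 1, at -1.79 and -1.39 without control 4, and at -4.53 and -3.62 without control 3. In the last fit 2 of 2 had an unadjusted p under 0.05, against 2.37% of all genes, and the smallest adjusted p was 1.00 in edgeR. They rest on few counts: mt-Rnr2 had 6, 17 and 114 counts in control 1 to 3 and 236, 28 and 54 in fisetin 1 to 3, then 160, 18 and 62 in control 4 to 6 and 26, 5 and 64 in fisetin 4 to 6.

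Levels of 7 pairs of mitochondrial genes were compared across the 12 kidneys, 6 of them next to each other among the messenger and ribosomal RNA genes and the other, mt-Co1 and mt-Co3, in the same complex. mt-Atp8 and mt-Atp6 share 1 messenger RNA and overlap by 43 bases, and mt-Nd4l and mt-Nd4 share another and overlap by 7. mt-Nd5 and mt-Nd6 meet on opposite strands with 14 bases in common. A read inside an overlap belongs to both genes, and the overlaps are shown in capitals, with the flanking bases of both genes in lower case, on the plus strand of the mitochondrial genome in GRCm38 (GENCODE transcripts), at chrM:7907-7989, chrM:10147-10193 and chrM:13532-13585.
mt-Atp8 and mt-Atp6: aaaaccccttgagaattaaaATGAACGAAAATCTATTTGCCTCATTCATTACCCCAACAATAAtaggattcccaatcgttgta
mt-Nd4l and mt-Nd4: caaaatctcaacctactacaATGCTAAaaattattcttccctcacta
mt-Nd5 and mt-Nd6: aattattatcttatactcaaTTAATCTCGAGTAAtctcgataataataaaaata

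The bicistronic pair mt-Nd4l and mt-Nd4 had the highest Pearson's r of these pairs as deposited, though not the highest Spearman's rho, with r = 0.981 and rho = 0.860 on log2 CPM (n = 12; permutation p = 1e-05, the smallest that 100000 resamples give, and 0.00067). mt-Atp8 and mt-Atp6 had r = 0.747 and rho = 0.727 (permutation p = 0.00474 and 0.00995), and r = 0.828 with copies added. The opposite-strand pairs had r = 0.900 and rho = 0.867 for mt-Nd6 and mt-Cytb (permutation p = 5e-05 and 0.00066) and r = 0.862 and rho = 0.769 for mt-Nd5 and mt-Nd6 (p = 0.00028 and 0.00502, by permutation). The ribosomal pair had r = 0.871 and rho = 0.902 (permutation p = 0.0003 and 0.00014), and mt-Rnr2 with its neighbour mt-Nd1 r = 0.749 and rho = 0.867 (permutation p = 0.0047 and 0.00054). The ribosomal rows held only 2 to 51 (mt-Rnr1) and 5 to 236 counts (mt-Rnr2) per library after selection of polyadenylated RNA. Correlations with them cannot be read as those of ribosomal RNA levels in the tissue. For these 6 pairs Benjamini-Hochberg adjustment over the 7 pairs gave at most 0.00553 for r and 0.0116 for rho. Without the 2 kidneys farthest from the median of the first gene, r lay between 0.701 and 0.966. Within batches of 6 it lay between 0.623 (mt-Nd5 and mt-Nd6, batch 1) and 0.996. On library totals without TMM, r of these 6 pairs over the 12 kidneys lay between 0.672 and 0.973. Leaving out the 2 farthest kidneys there gave 0.486 (mt-Atp8 and mt-Atp6) to 0.951. Batches of 6 there gave 0.46 (mt-Nd5 and mt-Nd6, batch 1) to 0.994. All values of a kidney share its library scaling.

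The seventh pair was compared as deposited and with copies added. The mt-Co3 row held a median of 4.09% of the counts of its pair, so mt-Co3 with its copy is mostly the row Gm28437. Its values with copies added therefore largely compare mt-Co1 with Gm28437. The part of read division in the change was not tested. mt-Co1 and mt-Co3, cytochrome c oxidase subunits on the same strand, had r = 0.511 and rho = 0.531 as deposited (permutation p = 0.0890 and 0.0794, adjusted p = 0.0890 and 0.0794), with r = 0.958 in batch 1 and 0.129 in batch 2. With copies added r was 0.970 and rho 0.853 (permutation p = 1e-05 and 0.00075, adjusted p = 3.5e-05 and 0.000968), with 0.928 and 0.993 in the batches and 0.944 without the 2 farthest kidneys.

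The nuclear row Gm29216, the copy of the end of mt-Co1, had the smallest p for diet among the counted copies. Its lowest, median and highest values were 76.8, 159 and 234 CPM with the control diet and 57.1, 94.3 and 186 with fisetin, with overlapping ranges and 1 of 6 fisetin kidneys above the control mean. The change was -0.76 ± 0.32 (log2; unadjusted p = 0.0336, adjusted p = 0.319 in edgeR; adjusted p = 0.226 in DESeq2). It was -1.29 in batch 1 alone and -0.24 in batch 2 alone, and 5 of 12 fits that left out 1 library kept an unadjusted p under 0.05. The copies Gm28661 (-0.07 ± 0.16), Gm10925 (-0.06 ± 0.18), Gm28437 (-0.01 ± 0.16) and Gm28438 (0.17 ± 0.91) differed by less than their standard errors.

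The nuclear genes that copy, process and translate mitochondrial RNA were examined in the same fit, and no member of any list below had an adjusted p under 0.05 in edgeR. Of 10 transcription genes, 5 had negative fold changes. Polrmt, the polymerase, was at -0.11 ± 0.09 with 43.8 ± 3.56 CPM in control and 40.5 ± 5.65 in fisetin kidneys (SD, n = 6 each), and Tfam, which packages mitochondrial DNA and starts transcription, was at 0.01 ± 0.08. At an unadjusted p under 0.05, 2 of 10 were lower and 1 higher, beside 6.34% lower and 8.24% higher of all genes: Mterf4 (-0.15 ± 0.06) and Mrpl12 (-0.27 ± 0.12) lower and Mterf1b, of the termination factor family, higher (0.52 ± 0.22). No gene of this list was lower at that threshold without control 2, 3, 4 or 6 or without fisetin 2 or 5, or in either batch alone. In those fits 1.88% to 4.80% of all genes were lower. No gene of this list was higher without control 3 or 6, without fisetin 1, 2, 4, 5 or 6, or in batch 1 alone. Mterf1b had low levels, 1.09 ± 0.274 CPM in control and 1.56 ± 0.362 in fisetin kidneys (SD, n = 6 each). Of 12 genes of DNA replication and packaging, 8 were negative, and Twnk, the mitochondrial helicase, was at -0.26 ± 0.07 (unadjusted p = 0.00441, adjusted p = 0.276, edgeR). Of 36 RNA processing and decay genes, 29 were negative with a median of -0.07. Among these were Elac2, which cuts the end of transfer RNAs (-0.15 ± 0.07), and Hsd17b10, a subunit of mitochondrial RNase P (-0.20 ± 0.07). They are 2 of the 3 of 36 genes of this list that were lower at an unadjusted p under 0.05, beside 6.34% lower of all genes. With 1 library left out that count ran from 1 to 6, and the share of all genes moved too. It was 1 without control 6, fisetin 1, 2 or 5, beside 3.97% to 4.80% of all genes. It was 6 without fisetin 3 or 6, beside 8.87% and 12.4%. Lrpprc, which stabilises mitochondrial messenger RNAs, was at -0.07 ± 0.08.

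The mitochondrial ribosomal protein genes had the most members below the unadjusted threshold. Of 78 tested, 75 had negative fold changes with a median of -0.14 against 0.00 over all genes, and 23 had an unadjusted p under 0.05 and were lower, 0 higher, beside 6.34% lower and 8.24% higher of all genes. With 1 library left out, the count of 23 was lowest at 16 without control 6, fisetin 1 or fisetin 5, beside 4.12%, 3.97% and 4.43% lower of all genes. It was highest at 40 without fisetin 3, beside 8.87%. In batches 1 and 2 alone it was 9 and 6, beside 3.82% and 1.88%. Mrpl34, of the large subunit, was the 1 gene of the 78 that DESeq2 called (adjusted p = 0.0215), against 0.376% of all genes called lower. In edgeR it had an adjusted p = 0.250, with a change of -0.32 ± 0.08 and 32.6 ± 2.19 against 26.1 ± 3.45 CPM (SD, n = 6 each, control first). Mrpl17 (-0.20 ± 0.05), Mrpl21 (-0.24 ± 0.06) and Mrpl4 (-0.23 ± 0.07) had adjusted p values between 0.261 and 0.276 in edgeR.

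Translation factors were negative for 13 of 16, with Tufm, the elongation factor, at -0.28 ± 0.13 and Letm1, an inner-membrane protein, at -0.30 ± 0.12. Of 22 genes for aminoacyl-tRNA synthetases and related enzymes, 20 were negative. Regulators of mitochondrial biogenesis were negative for 8 of 16, and their coactivator Ppargc1a was at -0.13 ± 0.15.

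The nuclear subunits that join the mitochondrial ones had small negative values. Of 36 complex I genes 35 were negative with a median of -0.15, of 9 complex III genes 9 with -0.16, of 12 complex IV genes 12 with -0.17 and of 16 ATP synthase genes 15 with -0.16. At an unadjusted p under 0.05, 4, 0, 2 and 1 were lower and 0 higher, against 6.34% lower of all genes. These counts moved with single libraries, as did the share of all genes. Without fisetin 6 they were 22, 6, 7 and 10, beside 12.4% lower of all genes, and without fisetin 3 they were 15, 3, 6 and 5, beside 8.87%. Without control 1 they were 10, 2, 2 and 4 (8.10%) and without control 5 14, 2, 3 and 5 (7.64%). Without control 6 they were 0 in all 4 lists (4.12%). Without fisetin 4 they were 3, 0, 1 and 1 (6.03%), and without fisetin 1 they were 1, 0, 0 and 0 (3.97%). Without control 2, 3 or 4 or fisetin 2 or 5 they were 1, 0, 0 and 1 (3.90% to 4.80%). Examples were Ndufb2 (-0.22 ± 0.08), Cox6a1 (-0.23 ± 0.10) and Atp5j2 (-0.19 ± 0.07). The 13 mitochondrial messenger RNAs in the same fit were negative for 11 with a median of -0.09. Whether the nuclear and mitochondrial sets differ was not tested.

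Levels of cell type markers also differed between kidneys. Of 12 proximal tubule markers 11 had negative fold changes, and their summed level ran from 12990 to 26040 CPM in control and from 8463 to 23850 in fisetin kidneys. The kidney with the lowest mitochondrial share, fisetin 5, also had the lowest sum of proximal tubule markers (8463). Control 1, with the next lowest share (2.80%), had a sum of 12990. Control 3 and control 4, with shares of 3.98% and 3.85%, had sums of 20930 and 26040. The 2 orders were not the same in every kidney. Fisetin 1 had the next lowest sum (9423) with a share of 3.22%. The sums of control 4 and control 6 (23970) were above that of fisetin 6 (23850), which had the highest share. Immune cell markers were positive for 10 of 10, with sums of 434 to 811 in control and 407 to 1153 in fisetin kidneys. Their highest sum was in fisetin 5 and their lowest in fisetin 6. None of these markers had an adjusted p under 0.05 in edgeR (unadjusted, 1 of 12 proximal tubule markers was lower and 4 of 10 immune markers higher, beside 6.34% and 8.24% of all genes), none was at 0 in all libraries, and their part in the mitochondrial values was not tested. Principal cell markers, of the collecting duct, had negative fold changes for 7 of 7 with a median of -0.47, and 7 of 7 were lower at an unadjusted p under 0.05, 0 after adjustment in edgeR. Their sums were 373 to 533 CPM in control and 180 to 385 CPM in fisetin kidneys. Thick ascending limb markers were negative for 7 of 7 with a median of -0.26, 0 of them at an unadjusted p under 0.05. Fat markers ran from 4.05 to 244 CPM, with the highest sum again in fisetin 5. The summed muscle and adrenal cortex markers stayed at or below 2.90.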

How the data were processed

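The authors deposited 1 table with counts, TPM and FPKM per gene for 12 kidney libraries. Per the submitters' processing notes, fastp, STAR, featureCounts and DESeq2 were used on GRCm38 (mm10); versions, options and the handling of reads with several matches are not stated there. The deposited counts were treated as estimated counts and rounded, because 13.9% of the values above 0 lay more than 1e-06 from a whole number. Deposited TPM and FPKM values per the file headers were used only for shares, for implied lengths and in limma alternatives on log2(value + 1).

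Genes were filtered with filterByExpr (minimum count 10), scaled by TMM and fitted in edgeR 4.0.16 (glmQLFit robust, glmQLFTest; batch and diet), with Benjamini-Hochberg adjustment over 17890 genes and a threshold of 0.05. Alternatives used DESeq2 1.42.0 and limma 3.58.1. Nuclear copies came from blastn 2.17.0 of mitochondrial genes against GENCODE transcripts (at least 95% identity over 200 bases). A whole-genome search was not run. Log2 CPM for correlations used a prior count of 2. The fits were tested on simulated data.

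All mitochondrial messenger and ribosomal RNAs are named, all nuclear copies with a mean count of at least 20, and of each other list up to 4 genes with the smallest p plus Polrmt, Tfam, Lrpprc and Ppargc1a. No transfer RNA is named, since all tied at 0. The members and lists were chosen with earlier results of these data known.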

Additional observations from a re-analysis of the deposited data

Results flagged for a closer look

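Among 60 groups of 6 libraries examined for a sample standing far from the others, 3 held one, where chance alone gives about 1 in 20, and all 3 were the same library. In the fisetin group, fisetin 1 had 1.97 CPM of mt-Rnr1 against 0.653 in the next highest kidney, and 13.3 of mt-Rnr2 against 3.48. Its share of counts in the mitochondrial ribosomal RNAs was 0.00159%, against 0.000387% in the next. That share sums the same 2 rows, so the 3 flags are not separate observations. The 60 groups come from the same libraries and are not independent either. The gap to the nearest kidney was 0.757, 0.754 and 0.784 of the group's range. These rows rest on 35 and 236 counts in that library, and no value in the other mitochondrial transcripts of fisetin 1 stood apart in this way.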

How the results depend on the processing

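No mitochondrial transcript passed for diet, batch or diet by batch under any alternative run. The sign of single fold changes was less settled: over 39 alternatives mt-Atp6, mt-Cytb and mt-Nd4l kept their sign in all, mt-Nd3 took the opposite sign in 15, mt-Nd2 and mt-Rnr2 in 13 and mt-Co3 in 9. On log2(TPM + 1), 8 of 15 were positive. Adding the nuclear copies raised the correlation of mt-Co1 with mt-Co3 from 0.511 to 0.970, past the threshold; the alternative moves the copies' counts by construction. DESeq2 called 1 mitochondrial ribosomal protein gene, Mrpl34, where edgeR called 0. Shares within the mitochondrial pool depended on the unit, with mt-Co1 at 54.9% of counts, 42.2% with copies and 29.6% of TPM. The difference in messenger RNA share ran from -0.277 to 0.0521 percentage points with 1 library left out. No paired analysis was possible because the labels give no replicate numbers shared between the diets. Low counts limit what can be said of the ribosomal RNAs, at 2 to 236 counts, and of the transfer RNAs, at 0.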
